A study of Rattus norvegicus with 6 samples.

Results

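Complex I is the entry point of the mitochondrial respiratory chain, and its genes were read here in the liver of weanling rat pups whose dams had been fed a high fat diet or a control diet. The members were all genes whose symbol starts with Nduf in the array's probe annotation, 42 of the 14213 genes that had a probe set of their own. A further 2 probe sets with an Nduf symbol matched several genes each and were given to none. For each gene the probe set with the highest mean over all 6 arrays was used. Of the 42 members, 41 lay above the brightness limit and were tested; Ndufa4l2, at 2.58 to 5.53 on the log2 scale, lay below it. The tested members comprised 12 Ndufa, 11 Ndufb, 2 Ndufc, 6 Ndufs and 3 Ndufv genes, the acyl carrier protein Ndufab1 and 6 assembly factors (Ndufaf).

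The animals were Sprague-Dawley rats aged 3 weeks. One group held 3 pups of dams on the high fat diet and the other 3 pups of dams on standard chow, with 1 Affymetrix expression array per liver sample. No further treatment of the pups is named in the labels. Litters are not named either, and pups of the same dam would not be independent, so each p rests only on the spread among these 6 samples. Signals are given on a log2 scale, and a log2 change is the high fat mean minus the control mean.

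Complex I takes electrons from NADH, passes them through a flavin and a chain of iron-sulfur clusters to ubiquinone, and pumps protons across the inner mitochondrial membrane. Its matrix arm holds the electron path, its membrane arm pumps the protons, and around the catalytic core sit many accessory subunits needed for assembly or stability. Assembly factors bind the growing complex and leave it before it is finished. In the liver this complex reoxidises the NADH made by fatty acid oxidation and the tricarboxylic acid cycle.

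Nuclear genes of the respiratory chain often carry binding motifs of NRF1, YY1 and ETS-family factors near their start. Promoter letters from 250 bases before to 50 bases after the gene start were taken from RefSeq (build GRCr8) for 39 of the 41 tested members. The table holds none for Ndufa8 and Ndufb9. Letters are printed for 5 of the 6 members whose difference between the diets had an unadjusted p under 0.05, the sixth being Ndufb9. Each runs 5′ to 3′ on the gene's own strand, and capitals mark matches to the NRF1, YY1 or ETS letters. The windows lie at chr2:47794865-47795164 (minus strand) for Ndufs4, chr4:53971186-53971485 (minus) for Ndufa5, chr18:28631835-28632134 (minus) for Ndufa2, chr11:76568928-76569227 (plus) for Ndufb4 and chr5:43401545-43401844 (plus) for Ndufaf4.
Ndufs4: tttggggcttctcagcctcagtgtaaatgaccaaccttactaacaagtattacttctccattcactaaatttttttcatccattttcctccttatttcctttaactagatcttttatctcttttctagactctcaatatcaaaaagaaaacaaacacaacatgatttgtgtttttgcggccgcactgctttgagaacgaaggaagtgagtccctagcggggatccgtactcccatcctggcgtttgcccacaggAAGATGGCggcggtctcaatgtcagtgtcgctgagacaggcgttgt
Ndufa5: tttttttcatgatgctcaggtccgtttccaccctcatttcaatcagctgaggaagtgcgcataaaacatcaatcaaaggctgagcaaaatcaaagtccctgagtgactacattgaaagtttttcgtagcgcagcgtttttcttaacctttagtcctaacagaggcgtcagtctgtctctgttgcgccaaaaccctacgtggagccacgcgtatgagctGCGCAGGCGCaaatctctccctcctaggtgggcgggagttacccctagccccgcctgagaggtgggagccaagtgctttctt
Ndufa2: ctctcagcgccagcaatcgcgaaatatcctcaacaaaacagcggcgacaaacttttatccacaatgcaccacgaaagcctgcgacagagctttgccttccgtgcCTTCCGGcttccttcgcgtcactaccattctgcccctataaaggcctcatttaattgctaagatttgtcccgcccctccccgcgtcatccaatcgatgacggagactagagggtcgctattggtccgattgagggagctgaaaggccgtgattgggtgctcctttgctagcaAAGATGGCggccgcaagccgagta
Ndufb4: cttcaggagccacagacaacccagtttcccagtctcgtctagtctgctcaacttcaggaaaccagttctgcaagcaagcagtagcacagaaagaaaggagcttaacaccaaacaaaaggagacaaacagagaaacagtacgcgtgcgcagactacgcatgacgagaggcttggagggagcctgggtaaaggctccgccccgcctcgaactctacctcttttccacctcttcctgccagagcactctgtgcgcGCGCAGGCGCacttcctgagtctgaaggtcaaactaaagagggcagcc
Ndufaf4: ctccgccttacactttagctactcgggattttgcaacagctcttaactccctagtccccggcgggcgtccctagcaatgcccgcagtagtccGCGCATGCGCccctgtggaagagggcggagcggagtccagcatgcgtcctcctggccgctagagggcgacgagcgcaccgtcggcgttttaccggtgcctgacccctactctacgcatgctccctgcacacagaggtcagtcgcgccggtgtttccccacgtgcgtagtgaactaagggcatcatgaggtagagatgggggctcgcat

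The motif letters searched on both strands were GCGCA, any base and GCGC in a row for NRF1, AAGATGGC for YY1 and CCGGAAG for ETS factors. The NRF1 letters occurred in 8 of the 39 member promoters (20.5%), against 4.25% of all 33469 rat promoters in the table. YY1 letters occurred in 9 (23.1%), against 3.17% of all promoters, and ETS letters in 9 (23.1%), against 8.75%. At least 1 of these 3 was present in 22 member promoters, a count that was not made over all promoters. The nuclear receptor element AAGGTCA occurred in 3 members (7.69%), against 4.61% of all promoters, GGGCGG in 18 (46.2%), against 33.1%, and CCAAT in 13 (33.3%), against 37.5%. A match describes the letters and does not show a bound factor. Ndufa5 and Ndufb4, both lower in high fat pups, and Ndufaf4, higher in them, each held an NRF1 match. No capitals of different motifs overlap in the 5 windows.

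Most complex I genes had a slightly lower signal in pups of high fat dams. Of 41 tested members, 38 had a log2 change below 0 (92.7%), against 53.1% of all 10370 genes tested, with a median of -0.21 beside -0.02 over all genes. The remaining 3 were above 0 (7.32%, against 46.9% of all genes). In 16 members all high fat arrays lay below all control arrays (39.0%), against 11.5% of all genes. This count was 29 without control replicate 1 and 25 without high fat replicate 1, where 17.9% of all genes were separate in each case. In 1 member, Ndufaf4, all high fat arrays lay above the controls (2.44%, against 9.24% of all genes). No member passed an adjusted p of 0.05 in limma, where 4 of all genes did (0.0386%). At an unadjusted p under 0.05, 5 members were lower (12.2%, against 7.51% of all genes) and 1 was higher (2.44%, against 6.56%). The count of 5 was 2 without high fat replicate 2, high fat replicate 3 or control replicate 3, where 5.39%, 5.91% and 5.84% of all genes were lower at that p. It was 3 without high fat replicate 1 or control replicate 2, where 6.48% and 6.56% of all genes were.

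**Figure D1:**
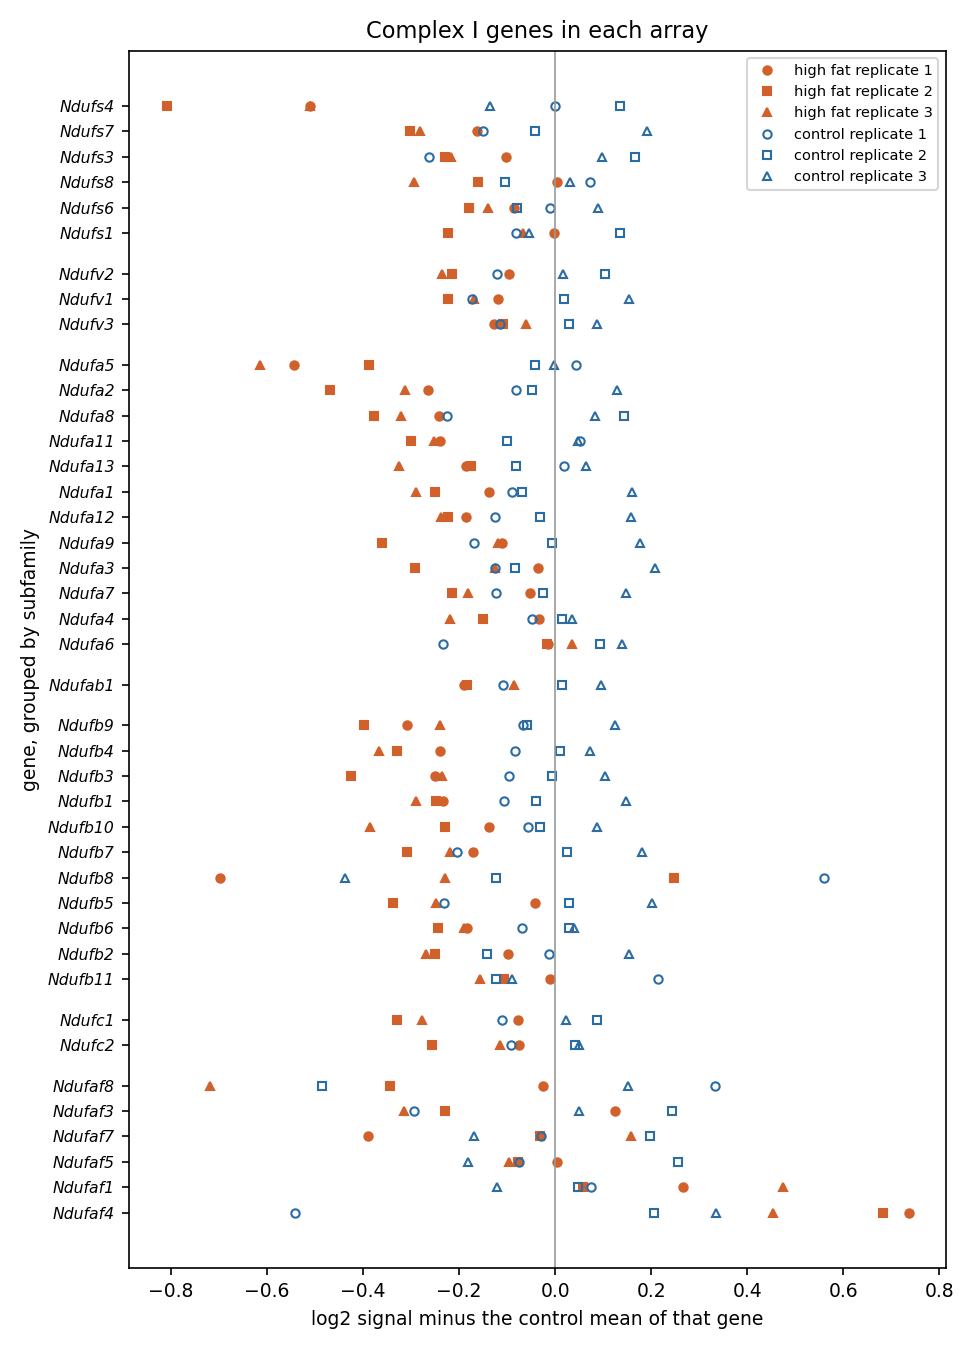
Log2 signal of each of the 41 tested members in each array, as the difference from that gene's control mean (x axis), with genes grouped by subfamily (y axis); filled symbols are high fat arrays and open symbols control arrays. High fat symbols lie mostly left of the control symbols for most subunits, while the Ndufaf genes at the bottom scatter on both sides.

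The arrays of each group did not stand level. The median member lay at -0.12, -0.23 and -0.24 in high fat replicates 1, 2 and 3, and at -0.09, 0.01 and 0.09 in control replicates 1, 2 and 3, each relative to the control mean. Thus high fat replicate 1 stood close to control replicate 1. High fat replicate 2 was below all controls in 30 members, replicate 3 in 28 and replicate 1 in 20. Control replicate 3 was the highest control in 25 of 41 members.

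Single arrays also stood apart in other measures, and the median of the members is given with and without them. Control replicate 3 had the largest mean 3′ minus 5′ difference of the Actb and Gapdh control probe sets, which is larger where RNA is less intact. The difference was 3.09, against 2.17 and 2.40 in the other controls and 2.49, 1.96 and 2.24 in high fat replicates 1 to 3. With this difference as a covariate the median log2 change of the members was -0.14, and 38 of 41 were still below 0. Without control replicate 3 it was also -0.14. High fat replicate 1 carried exocrine pancreas transcripts, with a summed signal of 60374 over 14 pancreas markers, against 2691 and 3432 in the other high fat arrays and 1965 to 4276 in controls. High fat replicate 3 had low Xist, at 4.45, against 12.51 and 12.92 in the other high fat arrays and 12.46 to 13.31 in controls. Its Eif2s3y, a Y-linked gene, was at 11.14, against 1.65 and 3.99 in the other high fat arrays and 0 to 3.91 in controls, so it was the only array that read as male. The labels give no sex, and the sexes were not balanced between the groups. The median of the members was -0.23 without high fat replicate 1, -0.18 without replicate 3 and -0.23 without both.

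Hepatocyte markers were measured in every array. The 10 measured hepatocyte markers, such as Alb and Ttr, summed to 240621 to 252922 in high fat arrays and to 255435 to 260089 in controls, and 8 of them had a log2 change below 0. All 9 tested markers of the sinusoidal endothelium had a log2 change below 0, 8 of them at an unadjusted p under 0.05 (7.51% of all genes). Their sums were 11790 to 15473 in high fat arrays and 20517 to 24235 in controls. In whole liver, fewer cells of a type and less RNA per cell cannot be told apart, and the part of this difference in the complex I values was not tested. Kupffer cell and macrophage markers had sums of 13839 to 22696 in high fat arrays and 17032 to 20680 in controls. Erythroid markers, 5 of 6 tested below 0, summed to 30231 to 40488 in high fat arrays and 38618 to 49655 in controls. The sums of stellate cell and fibroblast markers, of lymphocyte and neutrophil markers and of adipocyte markers overlapped between the groups, as did those of cholangiocyte markers, while 6 of 7 skeletal muscle markers lay below the brightness limit.

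The members were also set beside other genes of like brightness. Of the members, 31 had a mean log2 signal from 12 to 14. The 791 other genes in that range had a median log2 change of -0.01, 51.8% of them were below 0, and in 15.5% all high fat arrays lay below all controls. Spread within groups was small for the members, with a median SD of 0.12, against 0.22 over all genes tested. That comparison was not at like brightness, since the median log2 signal was 12.50 for the members and 9.07 over all genes. Genes of respiratory complexes II to V, with median signals of 11.30 to 13.48, had median SDs of 0.11 to 0.13.

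**Figure D2:**
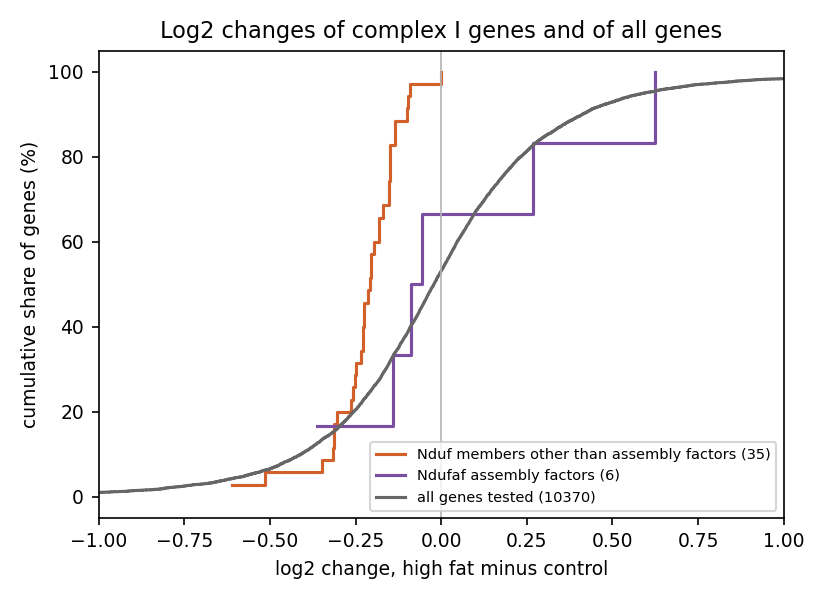
Cumulative share of genes (y axis, percent) by log2 change of high fat minus control (x axis, cut at -1 and 1), for 35 members other than assembly factors, 6 Ndufaf assembly factors and all 10370 genes tested. The curve of the 35 members lies between -0.35 and -0.09 but for Ndufs4, Ndufa5 and Ndufa6, and the 6 assembly factors spread from -0.36 to 0.62.

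The catalytic core carries the flavin, the iron-sulfur clusters and the ubiquinone site. All 6 core subunits tested had a log2 change below 0, with a median of -0.18 and a range from -0.25 to -0.10, and none had an unadjusted p under 0.05. Ndufs7, whose cluster hands electrons to ubiquinone, had 12.63, 12.49 and 12.51 in high fat replicates 1 to 3 and 12.64, 12.75 and 12.98 in control replicates 1 to 3. The groups did not overlap, though high fat replicate 1 and control replicate 1 nearly touched, and the log2 change was -0.25 (SE 0.14, limma adjusted p = 0.483).

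Ndufv1 binds the flavin and NADH, and Ndufv2 is its partner in the tip of the matrix arm. Ndufv2 had 12.98, 12.87 and 12.85 in high fat arrays and 12.96, 13.19 and 13.10 in controls, which overlap through high fat replicate 1 (log2 change -0.18, SE 0.13). Ndufv1 had 12.14, 12.03 and 12.09 in high fat arrays and 12.08, 12.28 and 12.41 in controls, with control replicate 1 inside the high fat range (-0.17, SE 0.14). Of the other core genes, Ndufs3 was at -0.18 (SE 0.15), Ndufs8 at -0.15 (SE 0.14) and Ndufs1, which holds several of the clusters, at -0.10 (SE 0.13). Their 95% intervals all include 0, and that of Ndufs1 runs from -0.41 to 0.22.

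Accessory subunits of the matrix arm included Ndufs4 and Ndufa5, the members with the lowest log2 changes. Of 9 tested, 8 were below 0 with a median of -0.20. At an unadjusted p under 0.05, 3 were lower (7.51% of all genes), and 5 had all high fat arrays below all controls (11.5% of all genes). Ndufs4, a subunit of the NADH-oxidising tip whose loss causes Leigh syndrome in humans, had 10.53, 10.23 and 10.53 in high fat replicates 1 to 3 and 11.04, 11.18 and 10.91 in control replicates 1 to 3. The groups were clearly apart, and the level was 34.5% lower in high fat pups (log2 change -0.61, SE 0.15, limma adjusted p = 0.198). Leaving out each array in turn kept it between -0.68 and -0.51.

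Ndufa5, a small subunit that sits beside the ubiquinone-reducing part, had 10.27, 10.43 and 10.20 in high fat arrays and 10.86, 10.77 and 10.81 in controls. Every high fat array was below every control, with a level 30.0% lower (log2 change -0.52, SE 0.12, limma adjusted p = 0.197). Ndufa2, a subunit of the NADH-oxidising tip with a thioredoxin-like fold, had 12.41, 12.21 and 12.37 in high fat arrays and 12.60, 12.63 and 12.81 in controls. Its groups were also apart, by less (21.5% lower, log2 change -0.35, SE 0.13, limma adjusted p = 0.315).

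Ndufa12, which takes its place late in assembly, was at -0.22 (SE 0.13) and Ndufa9 at -0.20 (SE 0.15). Ndufa7 was at -0.15 (SE 0.13), the zinc-binding Ndufs6 at -0.14 (SE 0.12) and Ndufv3 at -0.10 (SE 0.12). Ndufa6, a member of the LYR family that binds the acyl carrier protein, had the log2 change nearest to 0. It had 13.54, 13.54 and 13.59 in high fat arrays and 13.32, 13.65 and 13.69 in controls, so control replicate 1 was the lowest of all arrays and the other controls the highest. Its log2 change was 0.00075 with a 95% interval from -0.34 to 0.34, and it was -0.12 without control replicate 1.

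**Figure D3:**
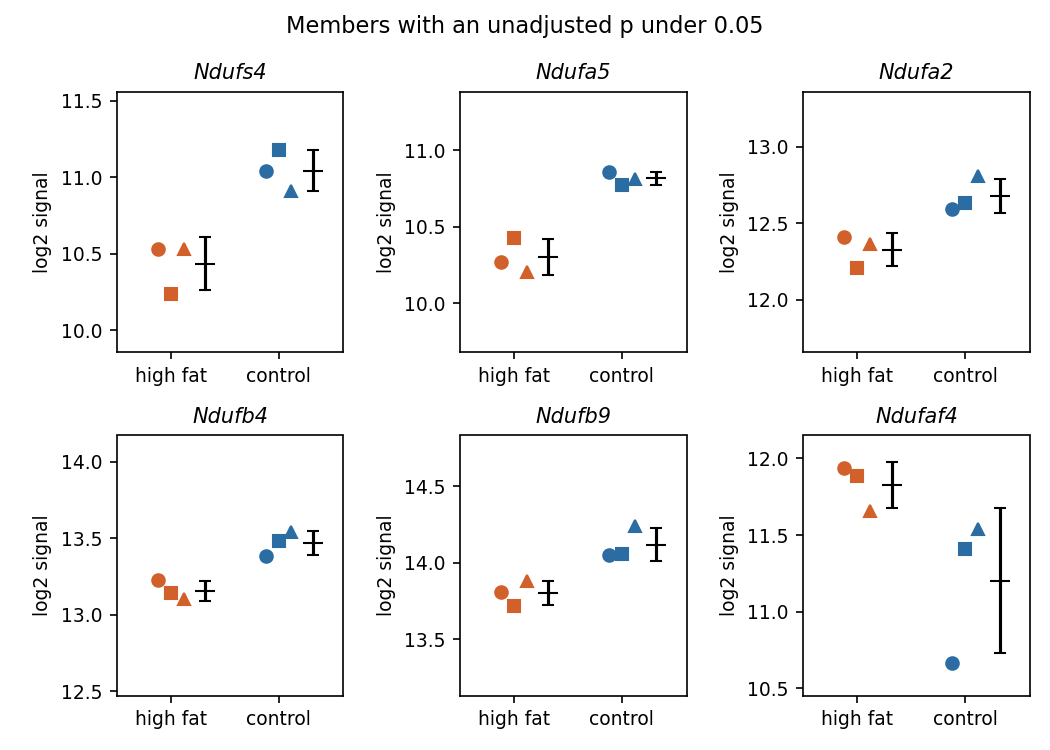
Log2 signal (y axis, each panel spanning the same range of log2 units) in high fat and control arrays for the 6 members with an unadjusted p under 0.05; circles, squares and triangles are replicates 1, 2 and 3, and the bar beside each group is the mean with its SD (n = 3). Ndufs4 and Ndufa5 show the widest gap between the nearest arrays of the groups, and Ndufaf4 is the only one with high fat above control, with control replicate 1 far below the other controls.

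All 18 tested accessory subunits of the membrane arm were below 0, with a median of -0.23 and a range from -0.32 to -0.09. In 10 of them all high fat arrays lay below all controls (11.5% of all genes), and 2 were lower at an unadjusted p under 0.05 (7.51% of all genes). Ndufb4, of the distal membrane arm, had 13.23, 13.14 and 13.10 in high fat replicates 1 to 3 and 13.38, 13.48 and 13.54 in control replicates 1 to 3. The groups did not overlap, with high fat 19.4% lower (log2 change -0.31, SE 0.12, limma adjusted p = 0.331). Ndufb9, another LYR protein that binds the acyl carrier, had 13.81, 13.72 and 13.88 in high fat arrays and 14.05, 14.06 and 14.24 in controls. These too were separate (19.6% lower, -0.32, SE 0.13, limma adjusted p = 0.343).

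Next came Ndufa8, which lies on the intermembrane space side, at -0.31 (SE 0.15), Ndufb3 at -0.30 (SE 0.13), Ndufa11 at -0.26 (SE 0.12), Ndufb1 at -0.26 (SE 0.13) and Ndufb10 at -0.25 (SE 0.13). All of these had every high fat array below every control. So did Ndufa13, also known as GRIM-19, at -0.23 (SE 0.12), Ndufa1 at -0.23 (SE 0.13) and Ndufb6 at -0.21 (SE 0.12). Ndufb7 (-0.23), Ndufb5 (-0.21), Ndufb2 (-0.21) and Ndufa3 (-0.15) were below 0 with overlapping groups.

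The sign of Ndufb8 and Ndufb11 depended on single arrays. Ndufb8 was at -0.23 with an SE of 0.33, since its arrays ran from 8.98 to 9.92 in high fat pups and from 9.24 to 10.24 in controls. Without control replicate 1 it was at 0.055. Ndufb11 was at -0.09 (SE 0.14) and at 0.015 without control replicate 1.

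The Ndufc subunits, counted above with the membrane arm, had overlapping groups. Ndufc1 had 13.19, 12.94 and 12.99 in high fat arrays and 13.15, 13.35 and 13.29 in controls. Only high fat replicate 1 reached into the control range, and the log2 change was -0.23 (SE 0.13). Ndufc2 had 13.10, 12.92 and 13.06 in high fat arrays and 13.09, 13.22 and 13.23 in controls, again with high fat replicate 1 inside the control range (-0.15, SE 0.12).

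Ndufab1 and Ndufa4 were counted in neither arm. Ndufab1, the acyl carrier protein of mitochondrial fatty acid synthesis and a subunit of the complex, was at -0.15 (SE 0.12). Ndufa4, now assigned to complex IV, was at -0.13 (SE 0.12). Neither had separate groups.

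Assembly factors lay on both sides of 0. Of 6 Ndufaf genes, 4 were below 0 and 2 above, with a median of -0.07. Ndufaf4, which works on the early ubiquinone-reducing part in human cells, had 11.94, 11.89 and 11.66 in high fat replicates 1 to 3 and 10.66, 11.41 and 11.54 in control replicates 1 to 3. All high fat arrays were above all controls, and the level was 54.1% higher (log2 change 0.62, SE 0.25, limma adjusted p = 0.335). Control replicate 1 decided much of its size, since the log2 change was 0.35 without it.

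Ndufaf3, the partner of Ndufaf4 in human cells, was at -0.14 (SE 0.19), with arrays from 9.57 to 10.005 in high fat pups and from 9.59 to 10.12 in controls. Ndufaf1, part of the assembly complex that also holds Ecsit and Acad9, had 8.215, 8.007 and 8.423 in high fat arrays and 8.022, 7.995 and 7.826 in controls. High fat replicate 2 lay inside the control range, and the log2 change was 0.27 (SE 0.15). Ndufaf5, which modifies Ndufs7 in human cells, was at -0.06 (SE 0.15), and Ndufaf8, which stabilises Ndufaf5 there, at -0.36 (SE 0.27). Ndufaf7, a methyltransferase, was at -0.09 (SE 0.18). Without control replicate 2 the median of the assembly factors was 0.042. Their median SD within groups was 0.24, against 0.11 for the other 35 members. This comparison was not at like brightness, since the assembly factors had a lower median signal than those members. All genes tested, with a median log2 signal of 9.07, had a median SD of 0.22. The difference between assembly factors and subunits was not tested.

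Assembly factors with other symbols were also mixed. Of 13 tested, 9 were below 0 and 4 above, with a median of -0.09, and none had an unadjusted p under 0.05. The smallest p values belonged to Dmac2 (-0.27, SE 0.13), Nubpl, which delivers iron-sulfur clusters to the complex (0.25, SE 0.18), and Tmem186 (-0.20, SE 0.16).

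**Figure D4:**
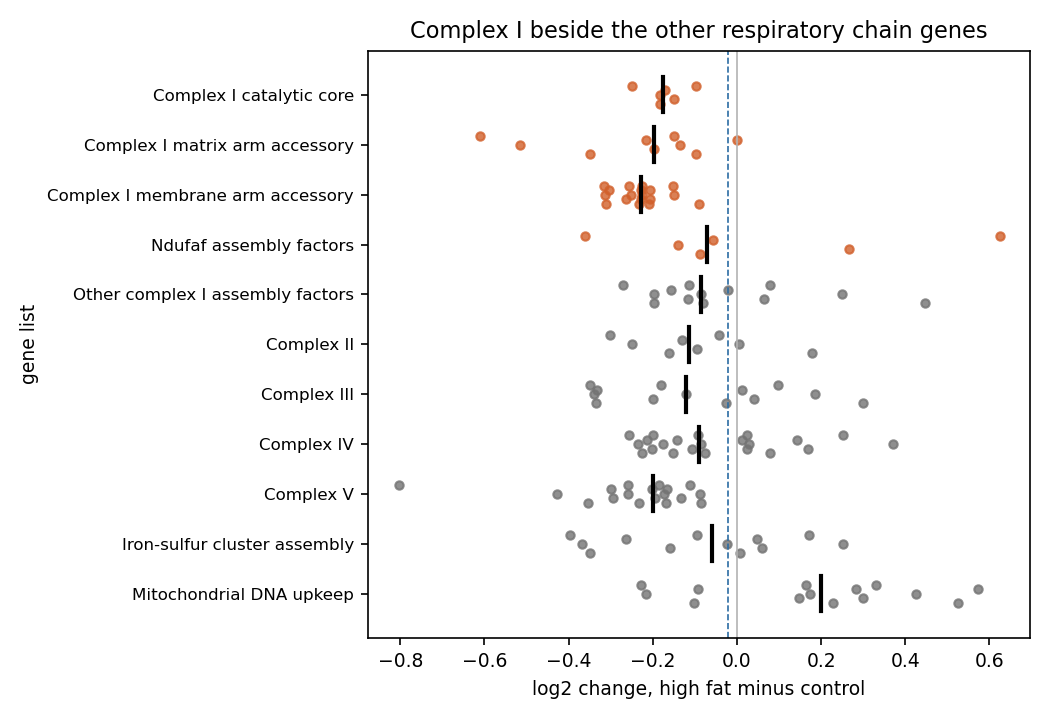
Log2 change of high fat minus control (x axis) for each tested gene of the complex I groups (orange) and of related mitochondrial gene lists (grey), with the list median as a black bar; the dashed line is the median of all genes tested and the solid line is 0. The complex I arms and complex V lie wholly or almost wholly left of 0, and the mitochondrial DNA list is the only one with a median well right of it. The lists of complexes II to V include assembly factors, which for complex I are shown in rows of their own.

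Complex V, the ATP synthase, had all 18 tested genes below 0 with a median of -0.20. In 11 of them all high fat arrays lay below all controls, against 11.5% of all genes. The same held for 6 of 13 genes of complex III, 7 of 22 of complex IV and 2 of 8 of complex II. The 3 genes of complex V with the smallest p were Atp5me (-0.80, SE 0.20), Atp5mf (-0.35, SE 0.12) and the inhibitor Atp5if1 (-0.43, SE 0.18). Complex III had 8 of 13 below 0 with a median of -0.12, led by Uqcc2 (-0.35), Uqcrh (-0.34) and Uqcr10 (-0.34). Complex II had 6 of 8 below 0 (median -0.11, with Sdhaf4 at -0.30, Sdhd at -0.25 and Sdhb at -0.16). Complex IV had 13 of 22 below 0 (median -0.09, with Cox7c at -0.26, Cox5b at -0.23 and Cox6b1 at -0.20). The lists of complexes II to V held assembly factors, such as Sdhaf4 and Uqcc2, together with subunits. Those of complex I were counted apart from its arms, so these medians are not of like make-up. At an unadjusted p under 0.05, 2 genes of complex V and 4 of complex III were lower and none of complexes II and IV, against 7.51% of all genes. None was higher in these complexes, against 6.56% of all genes. No gene of these complexes passed the adjusted threshold, and whether complex I differs from them was not tested.

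Genes that supply complex I with its clusters and its partner ubiquinone were divided. Of 12 iron-sulfur cluster assembly genes, 7 were below 0 (median -0.06) and 3 were lower at an unadjusted p under 0.05 (7.51% of all genes). These were Isca1 (-0.37, SE 0.13), Glrx5 (-0.35, SE 0.13) and Bola3 (-0.40, SE 0.16). Of 18 genes of ubiquinone synthesis and of other enzymes that reduce ubiquinone, 10 were below 0 (median -0.04). At an unadjusted p under 0.05, 2 were lower and 3 higher, against 7.51% and 6.56% of all genes. The 3 higher ones were Gpd2, the mitochondrial glycerol phosphate dehydrogenase that reduces ubiquinone without complex I (1.37, SE 0.20, limma adjusted p = 0.129), Coq8a (0.61, SE 0.20) and Coq4 (0.45, SE 0.15). The log2 change of Gpd2 was larger in size than that of any tested Nduf gene, and opposite in sign to 38 of the 41. Gpd2 was the highest of its list, whose lowest log2 change, at -1.91, was larger in size.

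Genes upstream of complex I in NADH supply had 13 of 20 below 0 with a median of -0.06. Among them Idh3g (-0.50, SE 0.16) and Mdh1 (-0.41, SE 0.13) lay lower and the aspartate-glutamate carrier Slc25a12 (0.58, SE 0.17) higher. Each had an unadjusted p under 0.05 and separate groups. At that p 2 of the 20 were lower and 1 higher, against 7.51% and 6.56% of all genes. All high fat arrays lay below all controls in 5 and above them in 1, against 11.5% and 9.24% of all genes. None of the 20 passed the adjusted threshold. Inner membrane scaffolds and proteases were evenly split, 7 below and 7 above 0 (median 0.02), with Clpx at 0.79 (SE 0.25), Higd1a at -0.38 (SE 0.15) and Opa1 at 0.27 (SE 0.13).

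Genes that maintain and transcribe mitochondrial DNA, which encodes the remaining complex I core subunits, were mostly above 0. Of 14 tested, 10 were above 0 with a median of 0.20, against 46.9% of all genes above 0. In 7 all high fat arrays lay above all controls, against 9.24% of all genes. At an unadjusted p under 0.05, 4 were higher and none lower, against 6.56% and 7.51% of all genes. The smallest p values were those of Tfb1m, a methyltransferase of mitochondrial ribosomal RNA (0.42, SE 0.13), the elongation factor Tefm (0.33, SE 0.12) and the nucleoside kinase Dguok (0.57, SE 0.23), none past the adjusted threshold. Tfam, which packages mitochondrial DNA, was at 0.23 (SE 0.14), with separate groups.

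Known regulators of nuclear respiratory genes showed no shared direction, with 7 above and 7 below 0 and a median of 0.05. Ppargc1a, the coactivator of mitochondrial biogenesis, was at 0.12 (SE 0.22), Nrf1 at -0.11 (SE 0.19), Esrra at -0.25 (SE 0.19) and Gabpa, of the ETS family, at 0.26 (SE 0.16), while its partner Gabpb1 was at -0.54 (SE 0.21). Ppara, the fatty acid sensor, had the largest difference of this list (1.29, SE 0.19, limma adjusted p = 0.129), and Prkaa1, a catalytic subunit of the energy sensor AMPK, was at 0.24 (SE 0.13).

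Other probe sets of the members were read for 4 genes. The dimmer probe set of Ndufa7 differed by -0.24, that of Ndufa9 by -0.33 and that of Ndufaf7 by -0.56. Each had the same direction as the brighter one. That of Ndufa9 lay below the brightness limit, with means of 5.37 in high fat pups and 5.70 in controls. For Ndufaf7 the brighter probe set differed by only -0.09. The dimmer probe set of Ndufv3 went the other way, at 7.92 ± 0.12 in high fat pups and 7.66 ± 0.19 in controls (SD, n = 3 each), a difference of 0.26. Of the 42 members, 20 have a pseudogene or a related copy named after them in the current rat gene table. Among them are Ndufb4 with 11, Ndufaf4 with 5, Ndufa5 and Ndufa2 with 4 each and Ndufs4 with 1. A short probe cannot always tell such copies from the gene, so the values of these 20 are less certain. Copies under other names were not searched for, so the other members may have copies too.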

How the data were processed

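Liver RNA from 6 rat pups was labelled with a 3' IVT kit and hybridised to Affymetrix arrays, per the labels' protocols. The authors deposited log2 signals per probe set; the base was found from the values, since only base 2 gives all arrays the same trimmed mean. How probes were summarised: not given in the sources used here. Array quartiles differed by up to 0.22, above a limit of 0.1, so arrays were quantile-normalized. Of 31042 probe sets other than controls, 20826 were paired with 1 gene, 436 with several and 9780 with none. For 20758 the symbol was taken from the current rat gene table by gene identifier, whether or not it changed. The lowest 40% by mean, below 5.83, were left out, leaving 10370 of 14213 genes.

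A linear model per gene (limma 3.58.1, run under R 4.3.3) with moderated 2-sided tests gave each p, adjusted by the Benjamini-Hochberg method across the 10370 genes; every adjusted p is limma's, and intervals are 95% from its moderated fit. The procedure was tested on simulated data. Marker sums add linear signals. Members and lists were chosen with earlier results of these data known. Values in every array are given for the 2 members of each subfamily with the smallest p, for those at an unadjusted p under 0.05 and for members above 0; from each other list the 3 genes with the smallest p are named, with 5 anchors (Ppargc1a, Esrra, Nrf1, Gabpa and Tfam). Precision is limited by the number of arrays. Alternatives were normalization, filter, probe sets, variance model, array weights, replicate block, RNA integrity and arrays left out. Figures were drawn with matplotlib 3.10.9.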

Additional observations from a re-analysis of the deposited data

How the results depend on the processing

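The median log2 change of the members stayed below 0 in all 17 alternatives, from -0.24 to -0.14, with 36 to 39 of 41 members below 0 (38 of 42 without the brightness filter). Some alternatives could not move this median. Trended and robust variances, the replicate block and a stricter brightness filter leave each member's log2 change as it was, and membership by current symbol named the same genes. With 1 array left out the median ranged from -0.24 to -0.14. The count of members lower at an unadjusted p under 0.05 was less stable. It was 8 with arrays centred on their medians (8.27% of all genes), 9 with trended and robust variances (7.77%), 3 with the covariate for RNA integrity (5.92%), 1 without high fat replicates 1 and 3 (4.77%), and 2 to 5 with 1 array left out (5.39% to 6.71%), against 5 in the main analysis (7.51%). Members with all high fat arrays below all controls were an alternative set chosen after seeing the data. They numbered 26 with median centring and 30 without high fat replicates 1 and 3, where 12.9% and 31.9% of all genes were separate this way. They numbered 16 to 29 with 1 array left out, where 15.7% to 17.9% of all genes were, against 11.5% in the main analysis. Genes passing limma's adjusted threshold numbered 4 in the main analysis, 1 without the brightness filter, 0 with the covariate for RNA integrity (1138 at an unadjusted p under 0.05) and 0 to 4 with 1 array left out. The count was 0 without control replicate 1 or control replicate 3 (1309 and 1148 at an unadjusted p under 0.05). No member passed it in any alternative (lowest adjusted p 0.123). The subfamily medians kept their direction, except the assembly factors, at -0.13 to 0.042 with 1 array left out. The Ndufv median was -0.077 with the covariate for RNA integrity, and the Ndufb median ran from -0.31 to -0.18 with 1 array left out. Where high fat replicate 2 stood alone, it was taken to vary like the controls.

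With the replicate number as a block, 2 members were lower at an unadjusted p under 0.05 (5.63% of all genes) and 0 of all genes passed limma's adjusted threshold (1103 at an unadjusted p under 0.05). Deviations of same-numbered samples from their group means correlated at -0.13, -0.13 and -0.14, and those of differently numbered samples at 0.04 to 0.08. Each sample thus correlated least with its own number. With 3 arrays per group, deviations from the mean are bound to sum to 0, so this check cannot exclude a pairing.

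Of the 41 members, 35 kept their sign in all alternatives, some of which could not change it. Ndufa6, at 0 within error, was at -0.015 with values as deposited, -0.037 with median centring, -0.017 without high fat replicates 1 and 3 and -0.12 to 0.069 with 1 array left out. Ndufv3 was at 0.079 with all its probe sets averaged, and Ndufb8 at 0.24 without high fat replicates 1 and 3. With 1 array left out, Ndufb8 ranged from -0.46 to 0.055, Ndufb11 from -0.15 to 0.015, Ndufaf5 from -0.15 to 0.072 and Ndufaf7 from -0.21 to 0.062. Among other genes, Ppargc1a was at -0.030 with its probe sets averaged, Nubpl at -0.036 without high fat replicates 1 and 3, and Nrf1 at -0.30 to 0.0031 with 1 array left out. The causes were not tested.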
